A study of Mus musculus with 10 samples.

Results

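The transcripts of 10 genes of the p53 response were followed in mouse brown adipocytes: Cdkn1a, Mdm2, Gadd45a, Ccng1, Bax, Bbc3, Sesn1, Zmat3, Pmaip1 and Phlda3. They were taken by symbol from the 24640 genes of the deposited count table, and all 10 were among the 15212 genes with enough counts to be tested. Total RNA was sequenced from brown adipocytes of the C57BL/6 strain, in 5 groups of 2 libraries. The solvent DMSO alone was given for 1 day or 3 days. BML-260, a small molecule described as an inhibitor of the phosphatase DUSP22, was given for the same times, and an agent given only as ISO, with no full name, is listed at 1 day. No group carries an engineered allele, the labels name no animal or culture, and DMSO at the matching time served as the control. Whether paired libraries stem from distinct animals or cultures is not stated, so each p-value reflects library-to-library spread alone, possibly technical in origin.

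p53 is a transcription factor that is held at low levels in unstressed cells, mainly because Mdm2, itself a p53 target, binds it and marks it for degradation. When DNA damage or other stress frees p53, it binds paired half-sites near its targets and raises genes that stop the cell cycle (Cdkn1a, Gadd45a), promote apoptosis at mitochondria (Bax, Bbc3, Pmaip1), restrain growth signals (Sesn1, Phlda3) and feed back on p53 (Mdm2, Ccng1, Zmat3). Several of these genes also answer to other stress factors; Gadd45a, Bbc3 and Pmaip1 are known targets of the ATF4 and CHOP arm of the integrated stress response. In fat, p53 is known for effects on adipocyte differentiation and on ageing tissue.

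The starts of the genes were examined for the p53 half-site, because the half-site is the sequence by which p53 finds its targets. RefSeq promoter windows of the GRCm38.p6 build, from 250 bases before to 50 bases after a start site, were matched by symbol for 8 of the 10 genes and gave 12 windows, with none for Zmat3 or Pmaip1. The 10-base half-site consensus was searched on both strands, where it reads the same way. It stood in 6 of the 12 windows, against 8.36% of all 32851 windows. Those windows belong to 6 of the 8 genes, for which no share per gene over all genes was computed. A pair of half-sites up to 13 bases apart stood in 1 of the 12, the window of the upstream Cdkn1a start site, against 0.0731% of all windows. That start site lies 2790 bases upstream of the other Cdkn1a start site with a window, and the pair spans 32 bases and begins 73 bases before the upstream start. The 150 bases before this start site are shown because they hold both half-sites, in capitals:

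Cdkn1a, chr17:29090829-29090978, plus strand: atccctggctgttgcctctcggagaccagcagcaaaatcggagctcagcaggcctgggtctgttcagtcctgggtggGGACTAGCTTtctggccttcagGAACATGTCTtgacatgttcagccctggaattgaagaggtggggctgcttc

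The other 5 matches are shown with 10 bases on either side, the half-site in capitals. They begin 40 bases before the RefSeq start of Gadd45a, 186 before Mdm2, 185 before Ccng1 and 201 before Bax. The Gadd45a match lies inside the annotated span of that gene given below, which starts further upstream. The Sesn1 match begins 173 bases before the downstream of its RefSeq starts, which lies inside the annotated gene. No half-site was in the window of the upstream Sesn1 start. The stretches follow:

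Gadd45a, chr6:67037428-67037457, minus strand: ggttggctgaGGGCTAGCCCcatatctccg

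Mdm2, chr10:117710925-117710954, minus strand: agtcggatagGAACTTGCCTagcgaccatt

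Ccng1, chr11:40755452-40755481, minus strand: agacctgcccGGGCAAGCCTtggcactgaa

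Bax, chr7:45467080-45467109, minus strand: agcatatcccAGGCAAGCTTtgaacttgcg

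Sesn1, chr10:41887256-41887285, plus strand: cttggccttcAAGCTTGTTTttgctggcct

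No half-site was found in the windows of Bbc3 or Phlda3. These matches describe letters, not binding, and no binding was measured here. TATAAA, searched on both strands, was in 0 of the 12 windows against 13.6% of all windows, and CCAAT was in 6 of 12 against 37.4%. The windows of these genes were GC-rich, with a median of 65.7% G or C against 52.7% over all windows, and with a median of 25 CpG dinucleotides against 7. Some genes gave several windows and so weigh more in these medians and counts. Those of Bbc3 (76.0%, 74.7% and 78.0% G or C) partly overlap, so some bases were counted more than once.

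The libraries held between 16955918 and 21185675 counts, and the 2 libraries of each group agreed closely, with a correlation of log2 CPM, the counts scaled to a common library size, across genes of at least 0.994. Markers of brown adipocytes (Ucp1, Cidea, Fabp4, Adipoq, Plin1, Pparg, Prdm16 and Ebf2) were all detected. Their summed level was 9241 to 9434 CPM in DMSO at 1 day, 12746 to 13193 in BML-260 at 1 day, 6479 to 6750 in ISO, 7016 to 7183 in DMSO at 3 days and 7427 to 7613 in BML-260 at 3 days. Most of that sum was Fabp4, at 6517 and 6268 CPM in DMSO and 10313 and 10560 CPM in BML-260 at 1 day, and the 8 markers did not move together. With BML-260 3 were called higher (Ucp1, Cidea and Fabp4) and 4 lower at each time. Those lower were Adipoq (-0.35 at 1 day and -1.06 at 3 days on the log2 scale), Pparg (-0.15 and -0.45), Prdm16 (-0.39 and -0.75) and Ebf2 (-0.24 and -0.48). With ISO 2 were higher and 5 lower. The 5 preadipocyte and fibroblast markers, all present in the table, summed to 1193 to 1351 CPM, 856 to 907, 2795 to 3166, 2397 to 2642 and 2181 to 2236 in the same order. The 5 smooth muscle and pericyte markers summed to between 100 and 118 CPM in the 4 BML-260 libraries and between 174 and 235 in the others. The 2 macrophage markers counted, Cd68 and Csf1r, summed to at most 7.18 CPM, the 4 endothelial markers to at most 1.42 CPM with Cdh5 at 0 in both libraries of 3 groups, and the muscle markers Ckm and Myh3 to at most 0.294 CPM, both at 0 in the 4 libraries of 3 days. The mixture of fat and stromal markers thus moved with the groups compared below, and its part in the results was not tested.

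Per kilobase of annotated exon, Phlda3 had the highest level of the 10 genes, with a mean over the 5 groups of 128 CPM per kb. Ccng1 (62.8 CPM per kb) and Cdkn1a (60.4) followed, then Bax (43.1) and Gadd45a (41.4). Mdm2 (19.3 CPM per kb) and Bbc3 (16.6) lay lower, Sesn1 (7.95) and Zmat3 (3.21) lower still, and Pmaip1 was the lowest at 0.912 CPM per kb. Trp53 itself, the gene for p53, stood at 19.3 CPM per kb and its inhibitor Mdm4 at 15.9. Across the 5 groups the highest group mean was 2.04 times the lowest for Gadd45a, 1.72 times for Phlda3 and 1.48 times for Bbc3, and no more than 1.36 times for the other 7, with Sesn1 the flattest at 1.10 times.

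**Figure D1:**
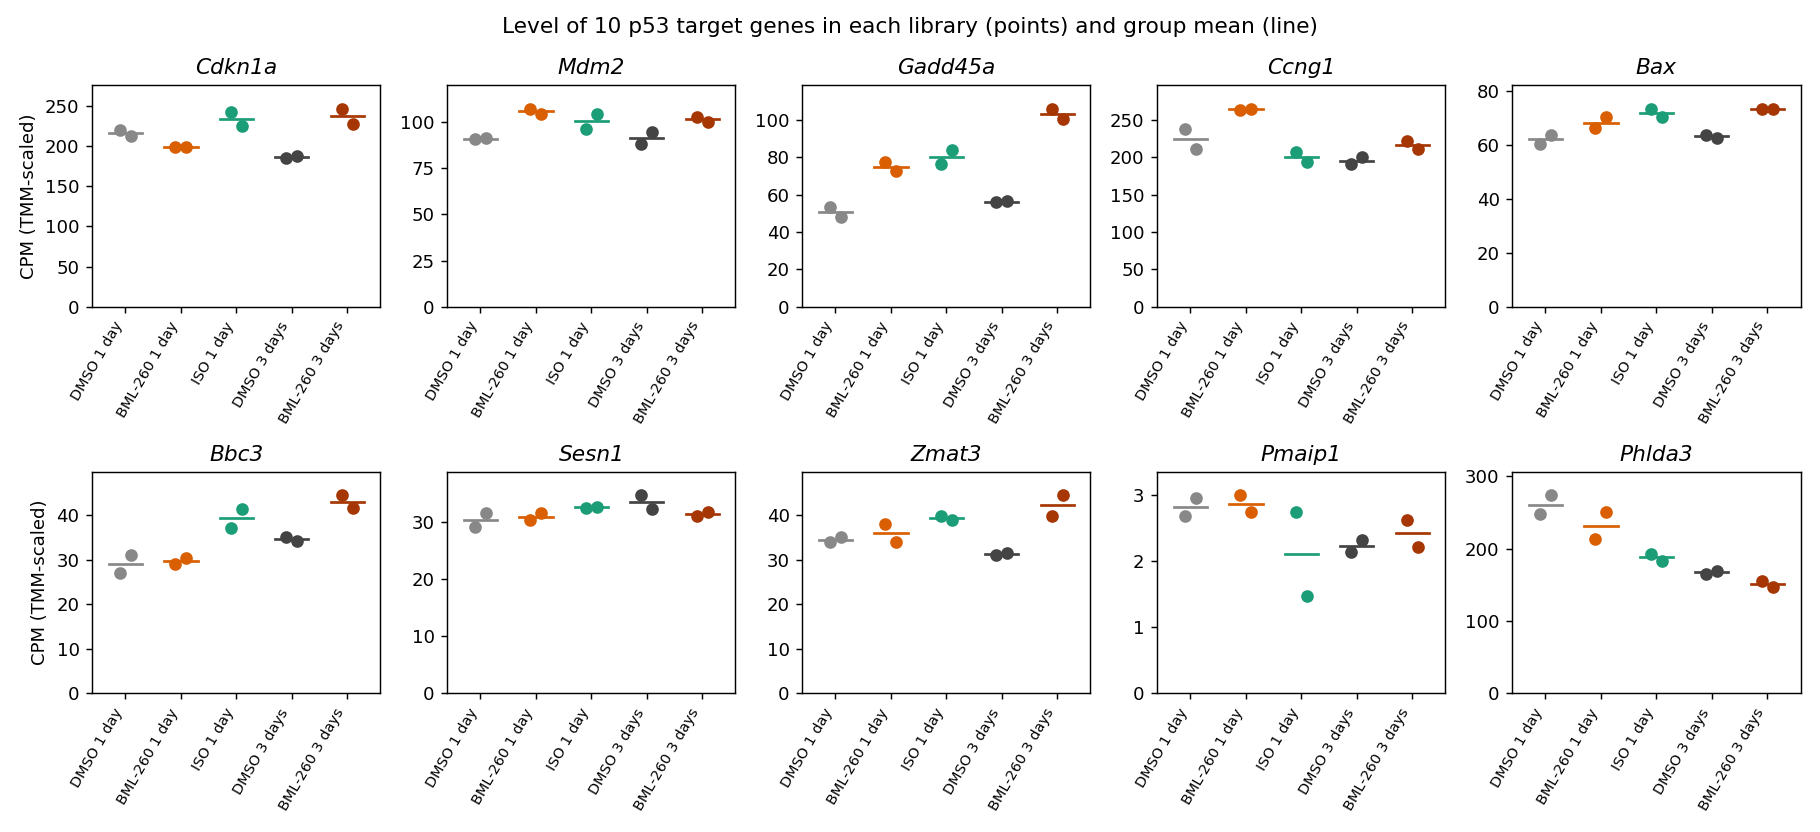
Level of each of the 10 genes in CPM (vertical axis, starting at 0 in each panel) in the 5 groups (horizontal axis). Each point is 1 library and each short line is the mean of a group's 2 libraries; Gadd45a is highest in BML-260 at 3 days and Phlda3 is highest in DMSO at 1 day.

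Among the genes of cell cycle arrest and repair, Gadd45a rose most. Gadd45a (chr6:67035096-67037457, minus strand, GRCm38) encodes a small stress protein that acts in growth arrest and DNA repair. Its level was 53.5 and 47.8 CPM in DMSO at 1 day, 77.4 and 72.5 CPM in BML-260 at 1 day, 76.7 and 83.9 CPM in ISO, 55.9 and 56.4 CPM in DMSO at 3 days, and 106 and 100.3 CPM in BML-260 at 3 days. Both treated libraries lay above both controls at each time, and BML-260 at 3 days stood above every other group. The log2 difference from DMSO was 0.57 (SE 0.06, adjusted p = 2.9e-07) for BML-260 at 1 day, a 1.48-fold higher level, and 0.88 (SE 0.06, adjusted p = 1e-11) at 3 days, a 1.84-fold higher level. For ISO it was 0.67 (SE 0.06, adjusted p = 2.3e-09). BML-260 and ISO at 1 day differed by -0.10 on the log2 scale, with a 95% interval from -0.22 to 0.02 (adjusted p = 0.17), so a gap of that size or none could not be told apart. The antisense gene E230016M11Rik overlaps a Gadd45a exon, and without a stated strand for the counting, reads of the pair cannot be told apart.

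Cdkn1a (chr17:29090976-29100727, plus strand) encodes p21, the inhibitor of cyclin-dependent kinases through which p53 arrests the cycle. Its level was 221 and 212 CPM in DMSO at 1 day, 199 and 199 CPM in BML-260 at 1 day, 243 and 225 CPM in ISO, 186 and 188 CPM in DMSO at 3 days, and 247 and 228 CPM in BML-260 at 3 days. At 3 days both BML-260 libraries lay above both controls, whereas at 1 day both lay below them. At 3 days Cdkn1a rose by 0.34 on the log2 scale (SE 0.05, adjusted p = 3.9e-06). At 1 day the log2 difference was -0.12 (SE 0.05, adjusted p = 0.09), short of the threshold of 0.05. The change in the BML-260 effect between the times was 0.47 on the log2 scale (SE 0.07, adjusted p = 0.00013), and stayed between 0.41 and 0.52 in every alternative run. The control itself moved: Cdkn1a fell in DMSO from 1 to 3 days, by 0.21 on the log2 scale (SE 0.05, adjusted p = 0.0014). The gene AC167363.2 overlaps a Cdkn1a exon on the other strand, so reads of that pair cannot be told apart either. The ISO difference was 0.11 (SE 0.05, adjusted p = 0.069), and it passed the threshold at 0.17 (adjusted p = 0.025) without ISO replicate 2.

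Ccng1 (chr11:40748552-40755311, minus strand) encodes cyclin G1, a p53 target that acts on Mdm2 through the phosphatase PP2A. The levels were 239 and 211 CPM in DMSO at 1 day, 264 and 265 CPM in BML-260 at 1 day, 207 and 194 CPM in ISO, 192 and 199.9 CPM in DMSO at 3 days, and 222 and 212 CPM in BML-260 at 3 days. ISO lay below the DMSO libraries of its day and BML-260 above them, with no overlap in either case. Ccng1 rose with BML-260 at 1 day by 0.24 on the log2 scale (SE 0.05, adjusted p = 0.002) and at 3 days by 0.15 (SE 0.05, adjusted p = 0.029), and fell with ISO by 0.16 (SE 0.05, adjusted p = 0.014). With single libraries left out, the 1 day difference was 0.15 without DMSO 1 day replicate 2 and was not called. The 3 day difference was 0.11 without BML-260 replicate 1, not called either. Without DMSO 3 days replicate 1 the 3 day call was lost although the difference stayed at 0.15. The ISO difference was -0.07 (adjusted p = 0.35) without DMSO 1 day replicate 1 and -0.11 (adjusted p = 0.18) without ISO replicate 2. The direct difference between BML-260 and ISO at 1 day, 0.40 (SE 0.05, adjusted p = 6e-07), held in every alternative run.

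Mdm2 (chr10:117688875-117710758, minus strand), the ligase that closes the p53 feedback loop, moved little. Its level was 90.6 and 91.2 CPM in DMSO at 1 day, 107 and 104 CPM in BML-260 at 1 day, 96.2 and 104 CPM in ISO, 88.1 and 94.8 CPM in DMSO at 3 days, and 103 and 99.9 CPM in BML-260 at 3 days. The treated libraries lay above the controls of their day throughout. With BML-260 at 1 day Mdm2 rose by 0.22 on the log2 scale (SE 0.05, adjusted p = 0.0042). The rises at 3 days (0.15, SE 0.05, adjusted p = 0.028) and with ISO (0.15, SE 0.05, adjusted p = 0.029) were of similar size but near the threshold. At 3 days the adjusted p was 0.15 without BML-260 replicate 1 (0.13), 0.063 without BML-260 replicate 2 (0.17) and 0.17 without DMSO replicate 1 (0.13), the value in brackets being the log2 difference. For ISO the log2 difference stayed at 0.14 without DMSO 1 day replicate 1 and 0.15 without DMSO 1 day replicate 2. It was 0.08 without ISO replicate 2. None of these was called. DMSO at 3 days and at 1 day differed by 0.01 (SE 0.05, adjusted p = 0.92).

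The mitochondrial apoptosis genes Bax and Bbc3 were higher with BML-260 at 3 days and with ISO. Bax (chr7:45461697-45466898, minus strand) forms pores in the outer mitochondrial membrane. It was at 60.6 and 63.9 CPM in DMSO at 1 day, 66.4 and 70.4 CPM in BML-260 at 1 day, 73.6 and 70.6 CPM in ISO, 63.9 and 62.8 CPM in DMSO at 3 days, and 73.5 and 73.3 CPM in BML-260 at 3 days. All 6 treated libraries exceeded all 4 controls. Bax rose by 0.21 on the log2 scale both with BML-260 at 3 days (SE 0.05, adjusted p = 0.003) and with ISO (SE 0.05, adjusted p = 0.003), and the 1 day BML-260 difference was 0.14 (SE 0.06, adjusted p = 0.089). The gene Gm45808 overlaps a Bax exon on the same strand, and the counting rule for such reads is not known here.

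Bbc3 (chr7:16308393-16318205, plus strand) encodes Puma, a BH3-only protein that frees Bax from its inhibitors. Its level was 27.1 and 31.1 CPM in DMSO at 1 day, 29.1 and 30.5 CPM in BML-260 at 1 day, 37.1 and 41.5 CPM in ISO, 35.2 and 34.3 CPM in DMSO at 3 days, and 44.5 and 41.7 CPM in BML-260 at 3 days. The 1 day BML-260 libraries lay inside the range of their controls, and the other treated groups lay above theirs. Bbc3 rose by 0.44 with ISO (SE 0.08, adjusted p = 3.9e-05) and by 0.31 with BML-260 at 3 days (SE 0.07, adjusted p = 0.0015) on the log2 scale. Against DMSO at 3 days the ISO difference was 0.18 (adjusted p = 0.08). Bbc3 also rose in the solvent control from 1 to 3 days, by 0.26 (SE 0.08, adjusted p = 0.011), a call that ended without DMSO 1 day replicate 1 (0.16, adjusted p = 0.19) and without DMSO 3 days replicate 1 (0.23, adjusted p = 0.092). The BML-260 effect on Bbc3 at 3 days exceeded that at 1 day by 0.28 (SE 0.11, adjusted p = 0.11), which passed at 0.37 (adjusted p = 0.047) without DMSO 1 day replicate 1.

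Pmaip1 encodes Noxa, another BH3-only protein, and was too low for differences of this size to be seen. It had 31 to 55 counts per library, which came to 2.68 and 2.95 CPM in DMSO at 1 day, 3.00 and 2.74 CPM in BML-260 at 1 day, 2.75 and 1.48 CPM in ISO, 2.14 and 2.32 CPM in DMSO at 3 days, and 2.63 and 2.21 CPM in BML-260 at 3 days. Treated and control libraries overlapped in each comparison of treatment with DMSO. The 95% interval of the log2 difference ran from -0.46 to 0.51 for BML-260 at 1 day and from -0.39 to 0.63 at 3 days. With ISO the difference was -0.45 (SE 0.25, adjusted p = 0.15) and became -0.93 (adjusted p = 0.013) without ISO replicate 1.

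Phlda3 (chr1:135766119-135769136, plus strand), whose protein blocks the kinase Akt at the membrane, went the other way. Its level was 248 and 273 CPM in DMSO at 1 day, 213 and 251 CPM in BML-260 at 1 day, 193 and 183 CPM in ISO, 165 and 169.6 CPM in DMSO at 3 days, and 155 and 148 CPM in BML-260 at 3 days. DMSO and BML-260 at 1 day overlapped, and the remaining groups did not overlap with any other. In the solvent control Phlda3 fell by 0.64 on the log2 scale between 1 and 3 days (SE 0.06, adjusted p = 3.8e-09). With ISO it fell by 0.47 (SE 0.06, adjusted p = 3.1e-07). The BML-260 difference was -0.17 at 1 day (SE 0.06, adjusted p = 0.045) and -0.15 at 3 days (SE 0.06, adjusted p = 0.062). The 1 day call ended without BML-260 replicate 1 (-0.06, adjusted p = 0.62) and without DMSO replicate 2 (-0.10, adjusted p = 0.45). Against DMSO at 3 days in place of 1 day, the ISO difference was 0.16 (adjusted p = 0.053), of the opposite sign.

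Zmat3 (chr3:32334792-32366014, minus strand) encodes a zinc finger protein that binds RNA and acts in the p53 response. Its level was 33.9 and 35.2 CPM in DMSO at 1 day, 38.1 and 33.9 CPM in BML-260 at 1 day, 39.8 and 38.9 CPM in ISO, 31.1 and 31.5 CPM in DMSO at 3 days, and 40.0 and 44.5 CPM in BML-260 at 3 days. The 3 day BML-260 libraries were the highest of the 10, and the 1 day ones overlapped their controls. At 3 days Zmat3 rose by 0.43 on the log2 scale (SE 0.07, adjusted p = 2.4e-05), against a difference of 0.06 at 1 day (SE 0.07, adjusted p = 0.66). The gap between the 2 effects was 0.38 (SE 0.10, adjusted p = 0.02). It lost its call without BML-260 1 day replicate 2 (0.29), BML-260 3 days replicate 2 (0.29) or DMSO 1 day replicate 2 (0.35). The call was also lost without DMSO 3 days replicate 1, where the gap was no smaller (0.40). With ISO Zmat3 rose by 0.19 against DMSO at 1 day (SE 0.07, adjusted p = 0.038), and by 0.33 against DMSO at 3 days, where it was also called. No library of ISO or of DMSO at 1 day could be left out with the call against DMSO at 1 day kept. The difference itself stayed between 0.16 and 0.21 in those runs. The adjusted p was 0.13 (0.17) and 0.088 (0.20) without ISO replicates 1 and 2, and 0.16 (0.16) and 0.074 (0.21) without DMSO replicates 1 and 2, each bracket holding the log2 difference.

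Sesn1 (chr10:41809935-41908424, plus strand), a sestrin that restrains mTORC1 under stress, was called in none of the 6 comparisons by edgeR. Its level was 29.0 and 31.6 CPM in DMSO at 1 day, 30.3 and 31.5 CPM in BML-260 at 1 day, 32.4 and 32.6 CPM in ISO, 34.6 and 32.2 CPM in DMSO at 3 days, and 30.9 and 31.6 CPM in BML-260 at 3 days. The whole range over the 10 libraries was narrow. The 95% interval of the log2 difference was -0.12 to 0.18 for BML-260 at 1 day, -0.24 to 0.05 at 3 days and -0.05 to 0.25 for ISO.

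BML-260 at 1 day gave 3 of the 10 genes higher (Gadd45a, Ccng1 and Mdm2) and 1 lower (Phlda3), where 17.9% of all tested genes were called, 9.32% higher and 8.62% lower. The median log2 difference of the 10 was 0.04, against -0.00 over all genes tested. Without DMSO 1 day replicate 2 the calls left were Gadd45a and Mdm2, and fewer of all genes were called too. In 5 of the 10 genes the BML-260 and DMSO libraries did not overlap, against 56% of all genes. At 3 days 7 of the 10 were higher (Gadd45a, Zmat3, Cdkn1a, Bbc3, Bax, Mdm2 and Ccng1) and 0 lower, against a background of 35.5% called, 17.3% higher and 18.3% lower, with a median of 0.18 against -0.02 over all genes. After Gadd45a, the next of these rises was 1.35-fold, in Zmat3. The groups did not overlap in 9 of 10 genes, against 67.9% of all genes.

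ISO shared its DMSO libraries with the 1 day BML-260 comparison, so both sets of differences carry the same control values. It gave 5 of 10 higher (Gadd45a, Bbc3, Bax, Zmat3 and Mdm2) and 2 lower (Phlda3 and Ccng1), against a background of 41.7% called, 21.4% higher and 20.3% lower. The median of the 10 was 0.13 on the log2 scale. The ISO and 1 day DMSO groups did not overlap in 9 of 10 genes, against 68.9% of all genes. Against DMSO at 3 days ISO called 4 of the 10 higher and 0 lower. Of all 15212 genes, 1620 were then called higher and 1406 lower, beside 3253 and 3086 against DMSO at 1 day. How far time in the solvent enters the ISO differences was not tested. Without DMSO 1 day replicate 1 fewer of the 10 were called, as were fewer of all genes.

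The change in the BML-260 effect from 1 to 3 days was called for 3 of 10 genes, Cdkn1a, Zmat3 and Gadd45a, where 8.44% of all genes were called, 3.93% higher and 4.51% lower. For Gadd45a it was 0.31 on the log2 scale (SE 0.09, adjusted p = 0.025). The Gadd45a call was lost without BML-260 1 day replicate 2 (0.26), BML-260 3 days replicate 1 (0.27) or DMSO 1 day replicate 1 (0.23). It was also lost without DMSO 3 days replicate 1, where the change was no smaller (0.33). Cdkn1a alone was called without BML-260 1 day replicate 2 or DMSO 3 days replicate 1, when fewer of all genes were called too. Mdm2 (-0.07), Ccng1 (-0.09), Bax (0.08), Phlda3 (0.02), Sesn1 (-0.12) and Pmaip1 (0.09) were not called on that difference.

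Set directly against ISO at 1 day, BML-260 gave higher Ccng1 and Phlda3 (0.31 on the log2 scale, SE 0.06, adjusted p = 0.00013) and lower Cdkn1a (-0.23, SE 0.05, adjusted p = 0.00033) and Bbc3 (-0.40, SE 0.08, adjusted p = 8.6e-05). These 4 of 10 stand beside a background of 44.4% called, 21.6% higher and 22.8% lower, and 7 of 10 did not overlap, against 70.4% of all genes. In the solvent alone, 4 of 10 were called from 1 to 3 days, Cdkn1a, Ccng1 (fell by 0.20, SE 0.05, adjusted p = 0.0041) and Phlda3 lower and Bbc3 higher, beside a background of 34.9% called, 18.1% higher and 16.8% lower. Without DMSO 3 days replicate 1 the calls left were Cdkn1a and Phlda3, with Ccng1 at -0.18 and not called. Without DMSO 1 day replicate 1 Ccng1 was at -0.11, not called either. Fewer of all genes were called in both runs. The DMSO groups did not overlap in 8 of 10 genes, against 66.6% of all genes.

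**Figure D2:**
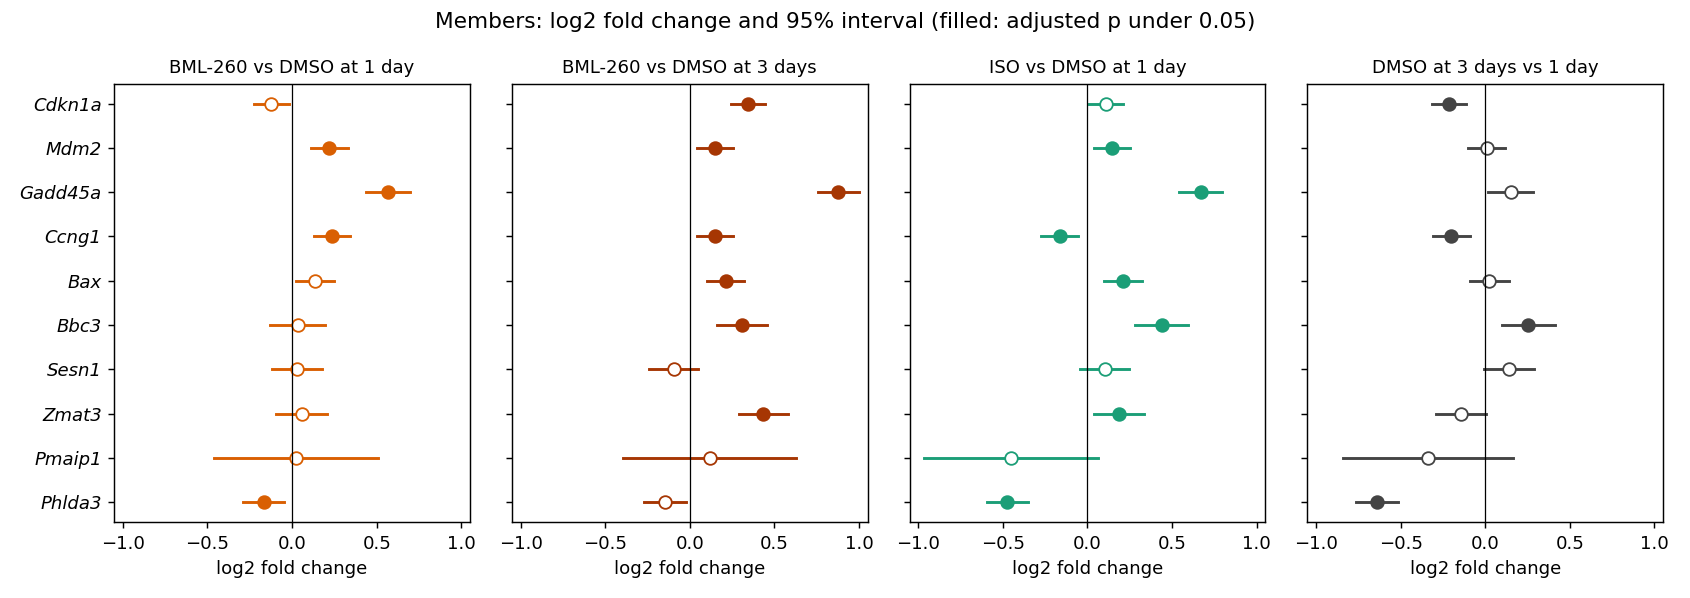
Log2 difference of each of the 10 genes (vertical axis) in 4 comparisons (panels), with 95% intervals as horizontal lines. Filled points passed an adjusted p of 0.05; Gadd45a is the farthest right in both BML-260 panels and Pmaip1 has the widest intervals.

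Trp53 transcripts were counted in the same libraries. Their level was 64.0 and 63.3 CPM in DMSO at 1 day, 64.0 and 69.4 CPM in BML-260 at 1 day, 82.4 and 88.2 CPM in ISO, 76.9 and 80.2 CPM in DMSO at 3 days, and 94.3 and 96.7 CPM in BML-260 at 3 days. The ISO libraries lay above DMSO at 1 day and, by less, above DMSO at 3 days. BML-260 at 3 days lay above all others. Trp53 rose with ISO (0.43, SE 0.06, adjusted p = 6.6e-07), with BML-260 at 3 days (0.28, SE 0.05, adjusted p = 0.00015) and in DMSO from 1 to 3 days (0.30, SE 0.06, adjusted p = 0.00011), on the log2 scale. At 1 day the BML-260 difference was 0.07 (SE 0.06, adjusted p = 0.46). Mdm4, the second p53 inhibitor, rose with ISO (0.24, SE 0.05, adjusted p = 0.00029) and with BML-260 at 3 days (0.15, SE 0.05, adjusted p = 0.021). Its BML-260 difference at 1 day was 0.09 (SE 0.05, adjusted p = 0.22). Per kilobase, Mdm4 averaged 14.3 CPM in DMSO at 1 day, 16.8 in ISO and 15.7 in DMSO at 3 days, so it too was closer to ISO in the later control. p53 is controlled largely at the level of the protein, which these counts do not measure, and in bulk RNA fewer cells of a type and less RNA per cell cannot be told apart.

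Of 18 regulators of p53, 16 were tested, and with BML-260 at 1 day 0 were called higher and 5 lower, with a median log2 difference of -0.05, where 17.9% of all genes were called. The kinase gene Hipk2 (-0.43), the gene for the p19Arf inhibitor of Mdm2, Cdkn2a (-0.21), and the acetyltransferase genes Crebbp (-0.22) and Ep300 (-0.19) were those of smallest p. The 5 became 2 without BML-260 1 day replicate 1, 1 higher and 2 lower without BML-260 1 day replicate 2, and 1 without DMSO 1 day replicate 2. At 3 days 3 were higher and 4 lower (median -0.07), a share near the 35.5% of all genes. The phosphatase gene Ppm1d fell by 0.38, the checkpoint kinase gene Chek1 fell by 0.26 and the kinase gene Atr rose by 0.25. Fewer were called without BML-260 3 days replicate 2 or either DMSO 3 days library, and fewer of all genes were called then too. With ISO 5 were higher and 4 lower, beside 41.7% of all genes. Against DMSO at 3 days ISO called 1 higher and 5 lower, where 1620 of 15212 genes were called higher and 1406 lower.

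Of 27 further known p53 targets, 24 were tested. BML-260 called 4 higher and 2 lower at 1 day (median 0.09) and 10 higher and 3 lower at 3 days (median 0.15), and ISO called 14 higher and 4 lower (median 0.25), beside the shares of all genes above. Against DMSO at 3 days ISO called 8 higher and 2 lower, where 1620 of 15212 genes were called higher and 1406 lower. At 3 days those of smallest p were Gdf15, a stress-secreted hormone (1.03, SE 0.10, adjusted p = 1e-08), the detoxifying hydrolase gene Ephx1 (0.39), the autophagy gene Dram1 (-0.59) and the anti-proliferative gene Btg2 (-0.44). With ISO Dram1 (0.57), the apoptosome gene Apaf1 (0.49) and Psrc1 (0.47) rose, and Btg2 fell by 0.39. Dram1 thus fell with BML-260 at 3 days, and at 1 day by 0.50 (adjusted p = 2.6e-05), but rose with ISO; the direct difference between BML-260 and ISO at 1 day was -1.07 (SE 0.07, adjusted p = 3.6e-12).

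The integrated stress response was represented by 7 genes, because its factors ATF4 and CHOP are known to act on Gadd45a, Bbc3 and Pmaip1. All 7 rose with BML-260 at 1 day (median 0.39) and at 3 days (median 0.53), and with ISO 6 rose and 1 fell (median 0.42), or 4 and 0 against DMSO at 3 days. Of all genes 9.32%, 17.3% and 21.4% were called higher in those 3 comparisons with the matching DMSO. For ISO against DMSO at 3 days, 1620 of 15212 were called higher. Ddit3, the gene for CHOP, rose by 0.47, 0.65 and 0.80 in that order, and Atf3 by 0.80, 1.66 and 0.36, on the log2 scale. Asns fell with ISO by 0.32. No test linked these genes to those above.

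Among 12 genes of mitosis and replication, which are usually lower in arrested cells, 0 were higher and 9 lower with BML-260 at 1 day (median -0.18), with Mki67 (-0.27), Mcm5 (-0.27), Birc5 (-0.26) and Cdc20 (-0.26) of smallest p, where 8.62% of all genes were called lower. Fewer of them were called without DMSO 1 day replicate 2, as were fewer of all genes. The p21 gene was not called at that time, and a link between it and these genes was not tested. At 3 days 2 were higher and 3 lower (median -0.04), near the 35.5% of all genes called. Both counts moved with any single 3 day library left out, in runs where fewer of all genes were called. The median was 0.01 without DMSO 3 days replicate 1. DESeq2 called 0 higher and 1 lower. With ISO 7 were higher and 0 lower (median 0.18), beside 21.4% of all genes called higher, among them Aurka (0.38), Ccnb2 (0.33), Cdc20 (0.28) and Ccna2 (0.22).

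**Figure D3:**
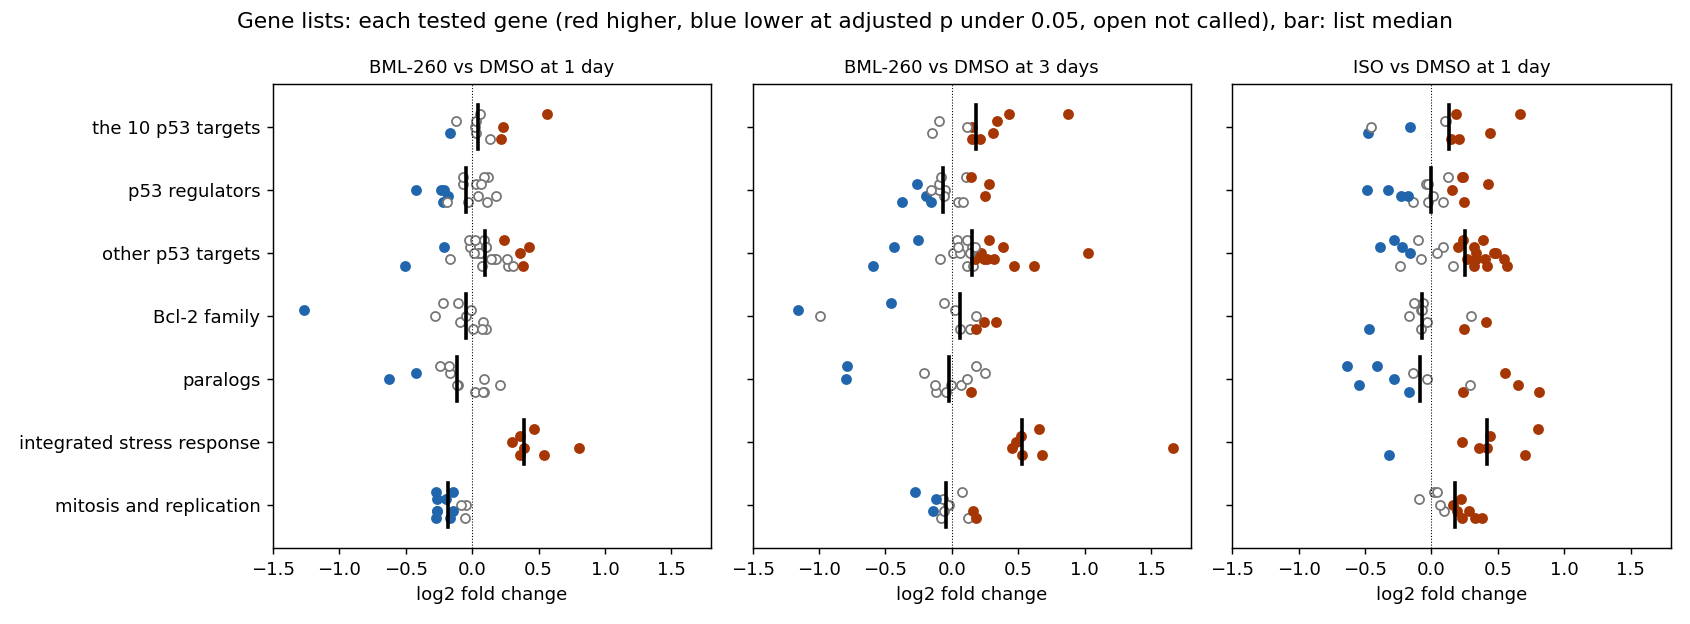
Log2 differences (horizontal axis) of single genes in 7 lists (vertical axis) for 3 comparisons (panels). Red points were called higher, blue points lower and open points not called, and the bar is the median of a list; the stress response list lies mostly to the right of 0 in all 3 panels.

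The 10 genes did not move as a block. Over the 10 libraries, which share groups and so are not independent points, 7 of the 45 pairs had a Pearson correlation of log2 CPM of at least 0.7, 22 were below 0, and the median was 0.05. Gadd45a followed Bax (r = 0.88) and Zmat3 (r = 0.82), and Bbc3 ran against Phlda3 (r = -0.81). Over all 10 libraries, the genes most like Cdkn1a among 9000 genes compared were Ranbp3 (r = 0.92), Gatad2a (r = 0.91) and Gsk3a (r = 0.91). For Gadd45a they were Rab3ip, Rhot1 and Rhbdd1 (each r = 0.99). Such values were common, since the gene ranked 50 had r = 0.82 for Cdkn1a and 0.96 for Gadd45a.

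In the authors' deposited table of BML-260 against DMSO at 1 day, 3 of these genes are listed: Gadd45a (0.50), Ccng1 (0.22) and Mdm2 (0.20), as log2 fold changes. The authors' deposited table at 3 days holds 6: Gadd45a (0.86), Zmat3 (0.41), Cdkn1a (0.35), Bbc3 (0.30), Bax (0.22) and Ccng1 (0.16). Phlda3 at 1 day and Mdm2 at 3 days, called here near the threshold, are not in them.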

How the data were processed

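Libraries were sequenced from total RNA of brown adipocytes. The submitters' processing notes name TopHat2 (2.1.1), DESeq2, bedtools and bcl2fastq (2.17.1.14), and the builds mm9 and mm10 are both named without a role. Annotation, counting rule and strand setting: none is given in the sources used here. The authors deposited raw counts per gene; their tables of selected genes also hold log2 fold changes, p-values and, per the file headers, test statistics read here as scores and mean counts read as signal.

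The counts of all 10 libraries were fitted with edgeR 4.0.16 (R 4.3.3): TMM scaling, genes kept by group at a minimum count of 10 and total of 15, 1 mean per group, two-sided quasi-likelihood F tests, with p-values adjusted by Benjamini and Hochberg's method across 15212 genes. A gene was called at an adjusted p under 0.05. CPM (counts scaled to a common library total) used TMM-scaled library sizes; log2 CPM used a prior count of 2. Standard errors came from the F statistic. Totals ran from 16955918 to 21185675. Intervals used the total degrees of freedom, which are the 5 residual ones plus those added by sharing the spread across genes. The fit was tested on simulated data, where it recovered fewer of the small changes in the change of effect between times than in the other comparisons, and the bound on recovery was lowered after that was seen. Coordinates and exon lengths are from GENCODE on GRCm38, promoters from RefSeq on GRCm38.p6, and 0 sample columns were left unmapped.

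The 10 genes and all lists were chosen with earlier results of these data known. Named were all 10 genes, Trp53 and Mdm4, up to 4 genes of smallest p per list and comparison, and the 3 genes of most alike pattern at a mean of at least 10 CPM; Ddit3, Atf3, Dram1 at 1 day and those in the closing section not of smallest p were chosen after their values were seen, as were the TATAAA and CCAAT searches. Alternatives were DESeq2 1.42.0, other scaling, no filter, only the groups compared, the replicate number as a block, ISO against DMSO at 3 days, and each library left out. A search of protein sequences was not run.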

Additional observations from a re-analysis of the deposited data

Results flagged for a closer look

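The effect of BML-260 differed between 1 and 3 days for 3 of the 10 genes by edgeR's test of the difference itself. Cdkn1a differed by 0.47 on the log2 scale (SE 0.07, adjusted p = 0.00013), with both 1 day BML-260 libraries below their controls and both 3 day libraries above theirs. Zmat3 differed by 0.38 (SE 0.10, adjusted p = 0.02), from 0.06 at 1 day to 0.43 at 3 days. Gadd45a differed by 0.31 (SE 0.09, adjusted p = 0.025), from 0.57 to 0.88, so that it rose at both times. Of the 3, the Cdkn1a call held in all 14 alternatives run, with adjusted p from 2.3e-07 to 0.0024. The DMSO libraries enter this difference too: between 1 and 3 days of solvent the log2 change was -0.21 for Cdkn1a, -0.14 for Zmat3 and 0.15 for Gadd45a. Groups of 2 libraries were not examined for outlying samples.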

How the results depend on the processing

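With the replicate number as a block, the number of the 10 genes called was 4 for BML-260 at 1 day, 8 at 3 days, 8 for ISO, 3 for the change of effect, 4 between BML-260 and ISO, and 4 between the DMSO times. Same-numbered libraries did not deviate together over all genes (r from -0.03 to 0.06 over 10 pairs of groups). That cannot exclude a shared culture or batch, because r over all genes can miss one that moves few genes. The block raised the all-gene calls in every comparison, for BML-260 at 1 day from 1417 higher and 1311 lower to 1520 and 1378. Leaving out each library in turn gave 2 to 4 called for BML-260 at 1 day, 5 to 7 at 3 days, 4 to 7 for ISO, 1 to 3 for the change of effect, 4 to 5 between BML-260 and ISO, and 2 to 4 between the DMSO times; a group left with 1 library was assumed to vary like the others. Every library left out also lowered the calls over all genes, so a lower count or a lost call does not by itself mark these genes. ISO against DMSO at 3 days called 4. Over single genes, 577 alternatives kept direction and call, 41 lost a call, 12 gained one and 19 changed sign.

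The sign changed against DMSO at 3 days for ISO in Ccng1 (0.04), Phlda3 (0.16) and Sesn1 (-0.04), and for Mdm2 over DMSO time with only the groups compared (0) or upper-quartile scaling (-0.01). With single libraries left out, the log2 differences that crossed 0 ran, over DMSO time, from -0.01 to 0.06 for Bax and -0.05 to 0.05 for Mdm2. With BML-260 at 1 day they ran from -0.06 to 0.14 for Bbc3, -0.04 to 0.1 for Pmaip1, -0.03 to 0.09 for Sesn1 and -0.03 to 0.14 for Zmat3, and at 3 days from -0.01 to 0.24 for Pmaip1. In the change of effect they ran from -0.03 to 0.22 for Pmaip1, -0.09 to 0.14 for Phlda3, -0.18 to 0 for Ccng1 and -0.09 to 0.01 for Mdm2. The cause was not tested. DESeq2 ended the calls of Phlda3 at 1 day (-0.17, adjusted p = 0.09), Mdm2 (0.15, 0.074) and Zmat3 (0.19, 0.12) with ISO and Zmat3 in the change of effect (0.39, 0.055), and gave no adjusted p for Pmaip1 there. Upper-quartile scaling ended Mdm2 (0.11, adjusted p = 0.091) and Ccng1 (0.11, 0.098) at 3 days and Mdm2 (0.09, 0.16) and Zmat3 (0.13, 0.13) with ISO. With only the groups compared, Phlda3 at 1 day (-0.18, adjusted p = 0.059) and Mdm2 with ISO (0.14, 0.051) were not called; against DMSO at 3 days, neither was Mdm2 with ISO (0.14, 0.067). Phlda3 at 3 days was called lower with that scaling (-0.18, adjusted p = 0.022), without the filter (-0.14, 0.039), with only the groups compared (-0.14, 0.011) and with the block (-0.15, 0.047). Cdkn1a with ISO was called higher with the block (0.11, adjusted p = 0.048) and against DMSO at 3 days (0.32, 3.2e-05). Counts of 31 to 55 limited Pmaip1 throughout.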

Other observations

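Some relatives of the 10 genes changed, and their lists are given with the share of all genes called. Bmf, a BH3-only gene like Bbc3 and Pmaip1, was at 8.97 and 10.1 CPM in DMSO at 1 day and 3.76 and 4.17 CPM in BML-260 at 1 day, and at 13.6 and 13.5 CPM against 6.42 and 5.69 CPM at 3 days. It fell by 1.27 on the log2 scale at 1 day (SE 0.14, adjusted p = 4.4e-07) and by 1.16 at 3 days (SE 0.12, adjusted p = 3.5e-08), both by edgeR, while its ISO difference was -0.07 (SE 0.12, adjusted p = 0.69). BML-260 and ISO at 1 day differed by -1.20 (SE 0.14, adjusted p = 1.6e-07). Bcl2l11, the gene for Bim, fell by 0.46 at 3 days (SE 0.10, adjusted p = 0.00055). Of the 11 Bcl-2 family genes tested, Bmf and Bcl2l11 included, 0 were higher and 1 lower with BML-260 at 1 day and 3 higher and 2 lower at 3 days, beside 17.9% and 35.5% of all genes called. With ISO 2 were higher and 1 lower, beside 41.7%.

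Of 12 paralogs of the 10 genes tested, 0 were higher and 2 lower with BML-260 at 1 day. At 3 days 1 was higher and 2 lower, and both times stand beside those same shares. With ISO 4 were higher and 5 lower, beside 41.7% of all genes. Against DMSO at 3 days 1 was higher and 2 lower, where 1620 of 15212 genes were called higher and 1406 lower. The cell cycle inhibitor Cdkn1c fell with BML-260 by 0.63 at 1 day (SE 0.08, adjusted p = 1.8e-06) and by 0.80 at 3 days (SE 0.07, adjusted p = 4e-09) on the log2 scale. Its levels were 57.6 and 55.8 CPM in DMSO against 36.6 and 36.9 CPM in BML-260 at 1 day, and 67.8 and 64.8 CPM against 43.2 and 33.3 CPM at 3 days. With ISO the inhibitor gene Cdkn1b (0.65, SE 0.05, adjusted p = 5.4e-11) and the cyclin gene Ccng2 (0.81, SE 0.05, adjusted p = 1.7e-12) rose, while Ccng1 fell. Both also rose in DMSO from 1 to 3 days, by 0.64 and 0.77.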
